A study of Homo sapiens with 4 samples.

Results

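The genes that write and erase methyl marks on histone lysines were compared between parental GBM8401 cells and temozolomide-resistant GBM8401 cells. The set was taken by gene symbol: all protein-coding KDM, KMT and numbered SETD genes of GENCODE 29, together with EZH1, EZH2, SETDB1, SETDB2, SUV39H1, SUV39H2, EHMT1, EHMT2, NSD1, NSD2, NSD3, DOT1L and PHF8. This gave 50 of the 58219 genes in the table. The Y-linked KDM5D was set aside and no value is given for it, which left 29 methyltransferases (writers) and 20 demethylases (erasers). GBM8401 is a human malignant glioma cell line. Parental cells (2 libraries) were compared with a derived line (2 libraries) kept in medium with 200 µM temozolomide, an alkylating drug used against glioblastoma, over 140 days. The labels call the replicates biological but name no separate day or culture for them, and the resistant pair was drawn from the same derived line. What the p-values measure is thus the spread among these libraries, not among independently derived resistant lines.

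Histone lysine methylation is set by SET domain enzymes, and by DOT1L with a different fold, which take the methyl group from S-adenosylmethionine. It is removed by the flavin-dependent KDM1 enzymes and by the JmjC family, which needs iron, oxygen and 2-oxoglutarate. Methylation of H3K4 and H3K36 marks active genes, whereas methylation of H3K9 and H3K27 marks silent chromatin. In glioma these enzymes are followed because mutant isocitrate dehydrogenase makes a metabolite that inhibits JmjC demethylases, and because EZH2, the catalytic subunit of Polycomb repressive complex 2 (PRC2), is often highly expressed.

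The deposited value of a gene is its number of sequenced fragments multiplied by a factor for each library, called scaled fragments here. Library totals ran from 23163310 to 25832511 scaled fragments, and the steps between low values correspond to 27019137 to 30759939 fragments per library. Of the 8 glial and neural progenitor markers, VIM, CD44, NES, SOX9 and OLIG2 were detected in every library, while GFAP, S100B and SOX2 were near 0 (at most 2.87, 4.25 and 10.5 scaled fragments). The list summed to 105659 and 110332 in parental against 66760 and 74811 in resistant libraries, with VIM, CD44, NES and SOX9 lower in both resistant libraries. The summed level of 4 fibroblast markers was 8388 and 6064 in parental replicates 1 and 2 and 8575 and 6714 in resistant replicates 1 and 2. Hematopoietic markers (sums of 124 to 172) and epithelial markers (484 to 781) were likewise higher in replicate 1 of each group, and the groups overlapped. Neuron marker sums were 186 and 206 in parental against 299.7 and 334.6 in resistant libraries, endothelial sums 586 and 632 against 460.1 and 369. The neuron difference was that of RBFOX3 (57.8 and 66.9 against 189.8 and 186.8), and most of the endothelial difference was that of CDH5 (286 and 404 against 158 and 120). Oligodendrocyte markers summed to at most 152 with MOG at 0 in all 4 libraries, and among 3 melanocyte markers MLANA and TYR were at 0 throughout. The part of these marker levels in the results was not tested.

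Sequences upstream of 3 members are shown because the results turn on them: EZH2 and EZH1, the paralogous H3K27 methyltransferases that moved in opposite directions, and KDM7A, which changed most. Each is the 250 bases before the RefSeq start (GRCh38.p14), 5′ to 3′ on the gene's strand. Motif letters were searched on both strands and are in capitals where found. The GC box was searched as GGGCGG. The CCAAT box was searched by the letters in its name. E2F was searched as TTTNGCGC and as TTTCCCGC. The cyclic AMP response element was searched as TGACGTCA.
EZH2 at chr7:148884292-148884541, minus strand: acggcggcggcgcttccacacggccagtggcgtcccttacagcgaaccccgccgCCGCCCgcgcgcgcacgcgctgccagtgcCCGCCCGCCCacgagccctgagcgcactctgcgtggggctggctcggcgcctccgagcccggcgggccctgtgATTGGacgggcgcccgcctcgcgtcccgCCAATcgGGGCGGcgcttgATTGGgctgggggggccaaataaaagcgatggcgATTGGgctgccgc
EZH1 at chr17:42745041-42745290, minus strand: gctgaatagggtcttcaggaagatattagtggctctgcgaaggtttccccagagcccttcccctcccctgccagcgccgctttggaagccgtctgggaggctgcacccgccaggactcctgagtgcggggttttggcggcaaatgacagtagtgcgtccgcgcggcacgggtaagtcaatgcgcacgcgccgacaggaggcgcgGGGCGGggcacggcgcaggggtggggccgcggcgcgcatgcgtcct
KDM7A at chr7:140176984-140177233, minus strand: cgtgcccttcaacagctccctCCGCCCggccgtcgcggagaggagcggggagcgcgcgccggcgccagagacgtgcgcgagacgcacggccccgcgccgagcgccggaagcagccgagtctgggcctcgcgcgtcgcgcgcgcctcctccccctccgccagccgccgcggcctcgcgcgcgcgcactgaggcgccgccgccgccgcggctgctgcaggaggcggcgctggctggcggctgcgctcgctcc

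The E2F letters TTTNGCGC were found in 1 of the 45 member windows that matched the RefSeq table (300 bases, 250 before and 50 after the start), against 1.77% of 34943 distinct windows of all genes. That window is EZH2's, where the letters begin at base 2 of the transcript. The other E2F form, TTTCCCGC, was in the windows of NSD2 and KDM1B (1.62% of all windows). The 3 sites are shown with 8 bases on each side and the E2F letters in capitals. KDM1B has this site in 2 copies, 1 of which is given.
EZH2 at chr7:148884275-148884298, minus strand: ctgccgcgTTTGGCGCtcggtccg
NSD2 at chr4:1871308-1871331, plus strand: cgcgcactTTTCCCGCggcttctg
KDM1B at chr6:18155180-18155203, plus strand: cccgcctcTTTCCCGCgccccgcc
CCAAT was in 33.3% of member windows and 34.6% of all windows, and GGGCGG in 71.1% and 44.9%. TGACGTCA was in that of SUV39H2 alone (1.84% of all windows). EZH2 holds 4 CCAAT matches and EZH1 none. A match of letters describes the sequence and is not evidence of binding.

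In resistant cells more writers fell than rose, and more erasers rose than fell. Of the 49 members with values, 46 passed the filter on low values and were tested, 28 writers and 18 erasers. EHMT2, KDM4E and KDM4F were listed at 0 in all 4 libraries. Genes were tested on log2(value + 1) with limma over all 16132 genes that passed the filter, and an adjusted p under 0.05 was counted as a change. In all, 9 members rose and 15 fell. Over all genes tested, 37.1% changed, 16.2% rising and 20.9% falling. Of these calls 43.7% were rises, and the share was 56.9% with scaling to library totals. Among writers 3 of 28 rose (10.7%) and 12 fell (42.9%), and the median log2 fold change was −0.30. These include 5 SET domain genes that were assigned no histone residue here. Among the 23 tested writers with a named residue 3 rose (13.0%) and 10 fell (43.5%), with a smaller median of −0.21. Among erasers 6 of 18 rose (33.3%) and 3 fell (16.7%), with a median of 0.21. The median over all genes tested was −0.018. The difference between both classes is a description and was given no test. The medians of writers stayed negative and those of erasers positive under each of the 14 other settings tried, but leaving out 1 library moved them. The eraser median was 0.073 without parental replicate 1, and the writer median −0.19 without parental replicate 2 and −0.18 without resistant replicate 1. Without trend and robust moderation 9 of the 24 calls were lost, those of KDM1A, KDM1B, KDM5C, KMT2D, KMT5A, NSD2, SETD1B, SETD2 and SETD4. Calls over all genes tested went from 5991 to 3686 in that setting. Point estimates of at least 1.5-fold, called or not, were found in 1 writer upward and 4 downward, and in 4 erasers upward and 2 downward. Over all genes tested 14.1% were upward and 11.4% downward by as much. In 41 of 46 members the parental and resistant values did not overlap, against 68.6% of all genes tested. That share includes genes of low value, and none was taken among genes at the members' levels.

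**Figure D1:**
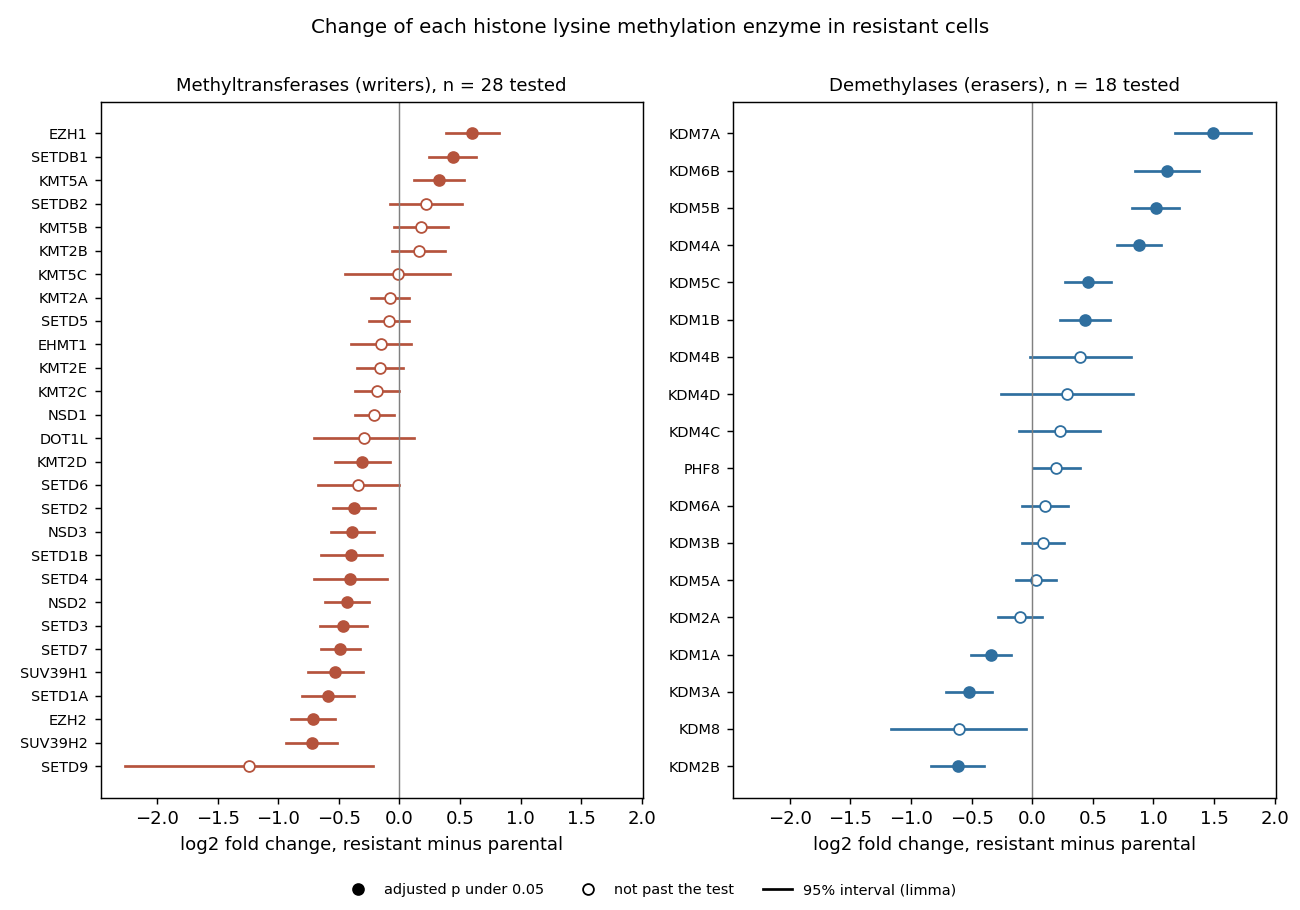
Log2 fold change of each tested member, resistant minus parental, with its 95% interval from limma, for writers (left) and erasers (right). Filled points passed the test: 12 writers lie left of 0 and 3 right of it, while 6 erasers lie right of 0 and 3 left of it.

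The H3K27 methyltransferases moved in opposite directions. EZH2 (ENSG00000106462, chromosome 7, 148807383 to 148884321) had 2237 and 2201 scaled fragments in parental against 1384 and 1320 in resistant libraries. Both resistant values lay below both parental values. EZH2 fell 1.64-fold (log2 fold change −0.71 ± 0.08, SE; adjusted p = 0.000411). In bulk RNA, fewer cells of a type and less RNA per cell cannot be told apart. EZH1 (ENSG00000108799, chromosome 17, 42700275 to 42745049), its paralog in PRC2 of slowly dividing cells, had 905 and 1020 in parental against 1492 and 1425 in resistant libraries. Here both resistant values were higher, and EZH1 rose 1.52-fold (log2 fold change 0.60 ± 0.09; adjusted p = 0.00187). A ratio of values within a library does not depend on how the library was scaled. The ratio of EZH2 to EZH1 was 2.47 and 2.16 in parental against 0.928 and 0.926 in resistant libraries. On the log2 scale it differed by −1.32 between groups, from 1.21 ± 0.14 to −0.11 ± 0.00 (SD, n = 2). With 2 libraries against 2, an exact two-sided permutation test cannot go below p = 0.333, which is the value reached.

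PRC2 subunits other than the enzyme were lower or did not pass. Of 9 tested genes of the list 4 fell (44.4%) and 0 rose, against 20.9% and 16.2% of all genes tested. The median was −0.21. The number called lower was 2 without resistant replicate 1, without resistant replicate 2 or without moderation, as EED and RBBP4 lost their calls, and 1 was called higher without parental replicate 1, with TMM factors or with library totals. PHF19, which recruits the complex, fell by 0.56 on the log2 scale (adjusted p = 0.000774), and the core subunits SUZ12 and EED fell by 0.43 and 0.42 (0.00228 and 0.0214). RBBP4, a histone-binding subunit, fell by 0.29 (0.0128). JARID2, RBBP7, AEBP2 and MTF2 had log2 fold changes between −0.21 and 0.22. PHF1 was at 2.87 to 29.4 scaled fragments, and it lies in the region of chromosome 6 described below with EHMT2. EZHIP, an inhibitor of PRC2 (CXorf67 in GENCODE 29), was listed at 0. Genes reported as repressed by EZH2 in cancer cells were tested in 8 cases, of which 1 fell (12.5%) and 0 rose. CDKN2A stayed between 14.4 and 22.6 scaled fragments in all 4 libraries, with overlapping groups.

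**Figure D2:**
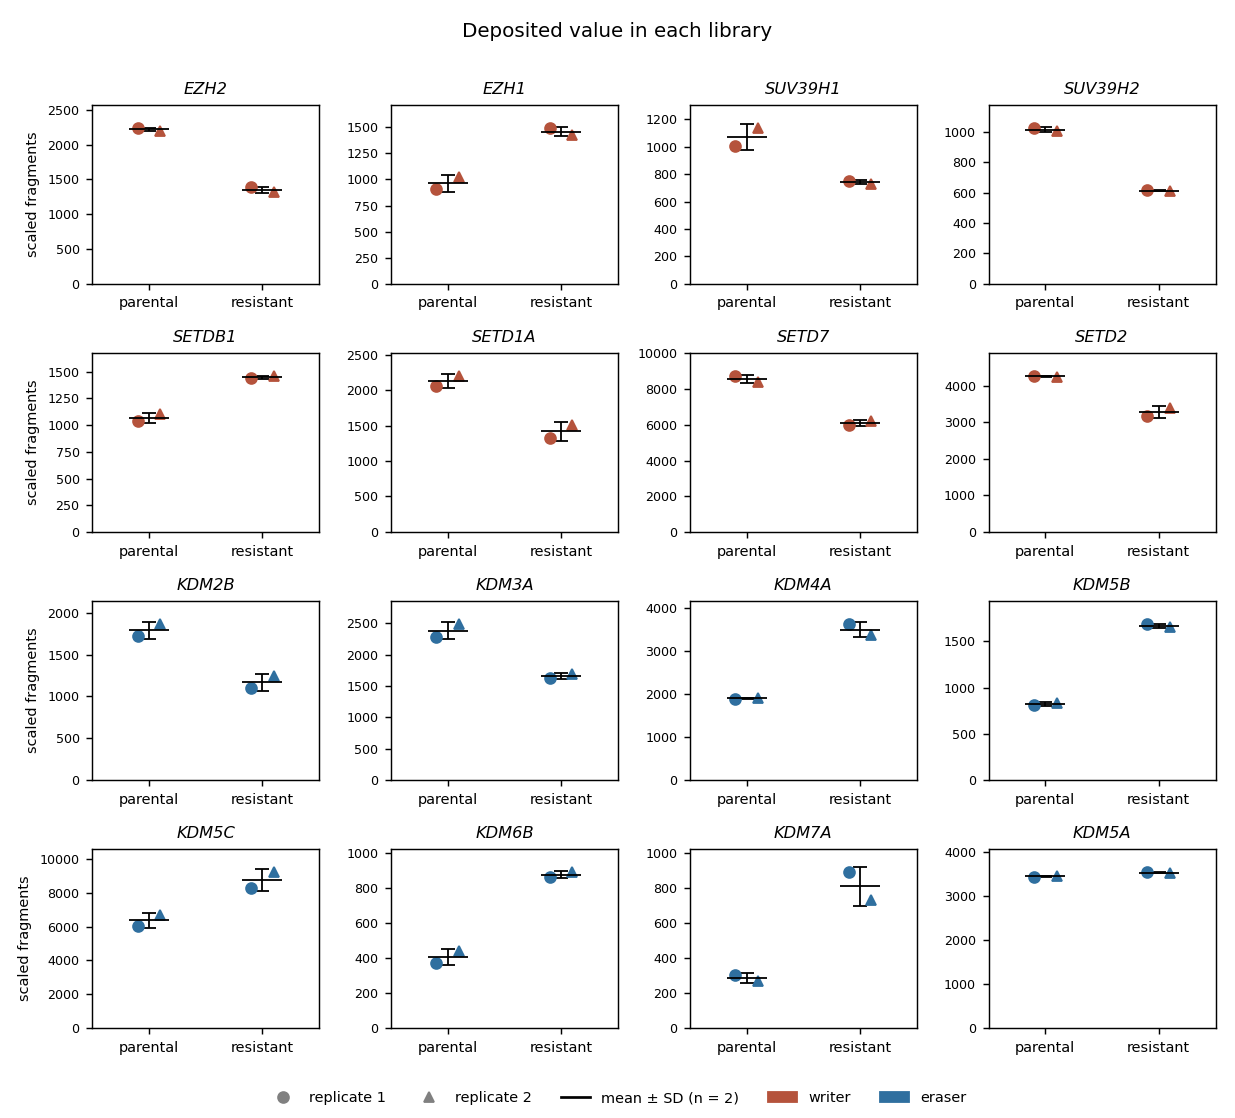
Deposited value (scaled fragments, axes from 0) of 16 members in each library, with replicate 1 as circles, replicate 2 as triangles and the mean ± SD (n = 2) as bars. EZH2, SUV39H1, SUV39H2, SETD1A, SETD7, SETD2, KDM2B and KDM3A are lower in both resistant libraries, EZH1, SETDB1, KDM4A, KDM5B, KDM5C, KDM6B and KDM7A are higher, and KDM5A is nearly level.

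Both SUV39H genes, which trimethylate H3K9 in heterochromatin, fell. SUV39H2 (ENSG00000152455, chromosome 10, 14878820 to 14904315) had 1026 and 1007 in parental against 618 and 611 in resistant libraries. It fell 1.65-fold (log2 fold change −0.72 ± 0.09; adjusted p = 0.000697), the largest called fall of the set. SUV39H1 (ENSG00000101945, chromosome X, 48695554 to 48709012) had 1003 and 1137 against 751 and 729.5. It fell 1.44-fold (−0.53 ± 0.10; adjusted p = 0.00427), and in both genes the groups did not overlap. SUV39H2 shares 159 exon bases with DCLRE1C on the opposite strand, which was also lower (626 and 591 against 465 and 429.7). SETDB1, which methylates H3K9 at silenced repeats, moved the other way, with 1036 and 1100.5 in parental against 1438 and 1458 in resistant libraries. It rose 1.36-fold (0.44 ± 0.09; adjusted p = 0.00479). SETDB1 shares 948 exon bases with CERS2 on the opposite strand, which itself had 4124 to 4253 scaled fragments with overlapping groups. EHMT1, the H3K9 mono- and dimethyltransferase, had 2772, 3210, 2470 and 2921 and overlapping groups (adjusted p = 0.316). SETDB2 did not pass either (log2 fold change 0.22 ± 0.13; adjusted p = 0.224).

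EHMT2 (G9a), the partner of EHMT1, was listed at 0 in every library. It lies on chromosome 6 at 31879759 to 31897687, and of the 180 protein-coding genes between 29 and 34 Mb of that chromosome 64.4% were listed at 0 in all libraries, against 13.4% of the other 19610. The 0 is therefore not read as absence of expression, and no ratio of EHMT1 to EHMT2 was formed.

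Genes of proteins that read or serve H3K9 methylation mostly fell. Of 10 tested genes 7 fell (70%) and 0 rose, against 20.9% and 16.2% of all genes tested. The median was −0.39, and 2 were called lower without trend and robust moderation. MPHOSPH8, a subunit of the HUSH silencing complex that binds methylated H3K9, had 1472 and 1487 in parental against 725 and 746 in resistant libraries and fell by 1.01 on the log2 scale (adjusted p = 0.000149). The heterochromatin protein genes CBX5 and CBX1 fell by 0.45 and 0.41 (adjusted p = 0.00137 and 0.00383). ATF7IP, which stabilises SETDB1, showed a log2 fold change of 0.020 ± 0.071 (adjusted p = 0.856).

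Among the 8 genes placed in the H3K4 class 4 fell (50%) and 0 rose, against 20.9% and 16.2% of all genes tested. The class median was −0.24. KMT2E is counted there by its name, and enzyme activity was not measured. SETD1A, the catalytic subunit of a COMPASS complex, led them. SETD1A (ENSG00000099381, chromosome 16, 30957294 to 30984664) had 2055 and 2198 in parental against 1325 and 1512 in resistant libraries. It fell by 0.59 ± 0.09 on the log2 scale (adjusted p = 0.00199). Its paralog SETD1B fell 1.32-fold (adjusted p = 0.0222), but this call was lost without parental replicate 2 (adjusted p = 0.0887) or resistant replicate 1 (0.171). SETD7, a monomethyltransferase with many non-histone substrates, had 8727 and 8391 against 6004 and 6204. It fell 1.40-fold (−0.49 ± 0.07; adjusted p = 0.00115). KMT2D, which methylates H3K4 at enhancers, fell 1.24-fold near the threshold (adjusted p = 0.0411), a call lost without parental replicate 2 (log2 fold change −0.20; adjusted p = 0.184), without resistant replicate 1 (−0.20; 0.231) and with scaling to library totals (−0.21; 0.0595).

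KMT2A, the gene rearranged in some leukemias, had 8918 and 9306 in parental against 8616 and 8629 in resistant libraries. Its log2 fold change was −0.08 ± 0.07 (95% interval −0.23 to 0.08; adjusted p = 0.4), and it was 0.016 when libraries were scaled to their totals. Exons of KMT2A overlap AP001267.5 on the same strand by 5599 bases, a gene not analysed here. KMT2B, KMT2C and KMT2E had log2 fold changes of 0.16, −0.18 and −0.16 and did not pass.

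Subunits of the COMPASS complexes, which hold the H3K4 enzymes, mostly fell. Of 12 genes tested 8 fell (66.7%) and 0 rose, against 20.9% and 16.2% of all genes tested. The median was −0.35, and 3 were called lower without trend and robust moderation. PAXIP1 and PAGR1, partners of KMT2C and KMT2D, fell by 0.78 and 0.80 on the log2 scale (adjusted p = 0.000485 and 0.000984). WDR82, which binds SETD1A and SETD1B, fell by 0.63 (adjusted p = 0.000611). The core subunits ASH2L and DPY30 had log2 fold changes of 0.033 and 0.0039 and did not pass.

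All 4 H3K36 methyltransferases had negative log2 fold changes, and 3 fell (75%, against 20.9% of all genes tested). SETD2, the sole enzyme known to trimethylate H3K36 in most cells, had 4269 and 4259 in parental against 3176 and 3397 in resistant libraries. It fell 1.30-fold (−0.38 ± 0.08; adjusted p = 0.00542), a call lost without resistant replicate 1 (−0.33; adjusted p = 0.0515). The dimethyltransferase genes NSD2 and NSD3 fell 1.35-fold and 1.31-fold (adjusted p = 0.00396 and 0.0058). NSD1 lay just outside the threshold, with a log2 fold change of −0.21 ± 0.07 and an adjusted p of 0.0501. On the inner side of the threshold were SETD4 (0.0406) and KMT2D, on the outer side NSD1 and SETD9 (0.0598).

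DOT1L, the H3K79 methyltransferase, had 2375 and 3158 in parental against 1962 and 2534 in resistant libraries. The groups overlapped, and the log2 fold change of −0.30 ± 0.17 did not pass (95% interval −0.71 to 0.12; adjusted p = 0.226). In each group DOT1L was higher in replicate 2. Without parental replicate 1 it passed, at −0.50 (adjusted p = 0.030), and it also passed after a correction for length and GC content (−0.34; 0.0062). It has a GC content of 62.7%, and over the 46 tested members the log2 difference of replicate 2 from replicate 1 followed GC content with a Pearson r of 0.54 in parental and 0.41 in resistant libraries, against 0.10 in each over all tested genes with a GC value. These points share libraries, and the values describe them only. The log2 fold change between groups had an r of −0.01 with GC content and of 0.14 with log2 exon length.

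Of the 3 H4K20 methyltransferases 1 rose (33.3%) and 0 fell, against 16.2% and 20.9% of all genes tested. KMT5A, the monomethyltransferase of dividing cells, had 1316 and 1482 in parental against 1752 and 1745 in resistant libraries. It rose 1.25-fold (0.32 ± 0.09; adjusted p = 0.0223). The call was lost without parental replicate 1 (0.24; adjusted p = 0.0974), resistant replicate 1 (0.32; 0.115) or resistant replicate 2 (0.33; 0.105). KMT5B and KMT5C had log2 fold changes of 0.18 ± 0.10 and −0.016 ± 0.189 and did not pass. The other 5 SET domain genes act largely on other proteins or have substrates that are less clear. SETD3, an actin histidine methyltransferase, fell 1.38-fold (adjusted p = 0.00358). SETD4 fell 1.33-fold, a call lost without parental replicate 2 (adjusted p = 0.159), resistant replicate 1 (0.202) or resistant replicate 2 (0.124) and with scaling to library totals (0.0687). SETD9 had the most negative log2 fold change, −1.24 ± 0.44, on low values (40.7 and 41.1 against 27.1 and 10.2), and it did not pass. SETD5 (−0.089 ± 0.072) and SETD6 (−0.34 ± 0.15) did not pass, and SETD6 shares 1086 exon bases with CNOT1 on the opposite strand, a gene at 15941 to 19582 scaled fragments.

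**Figure D3:**
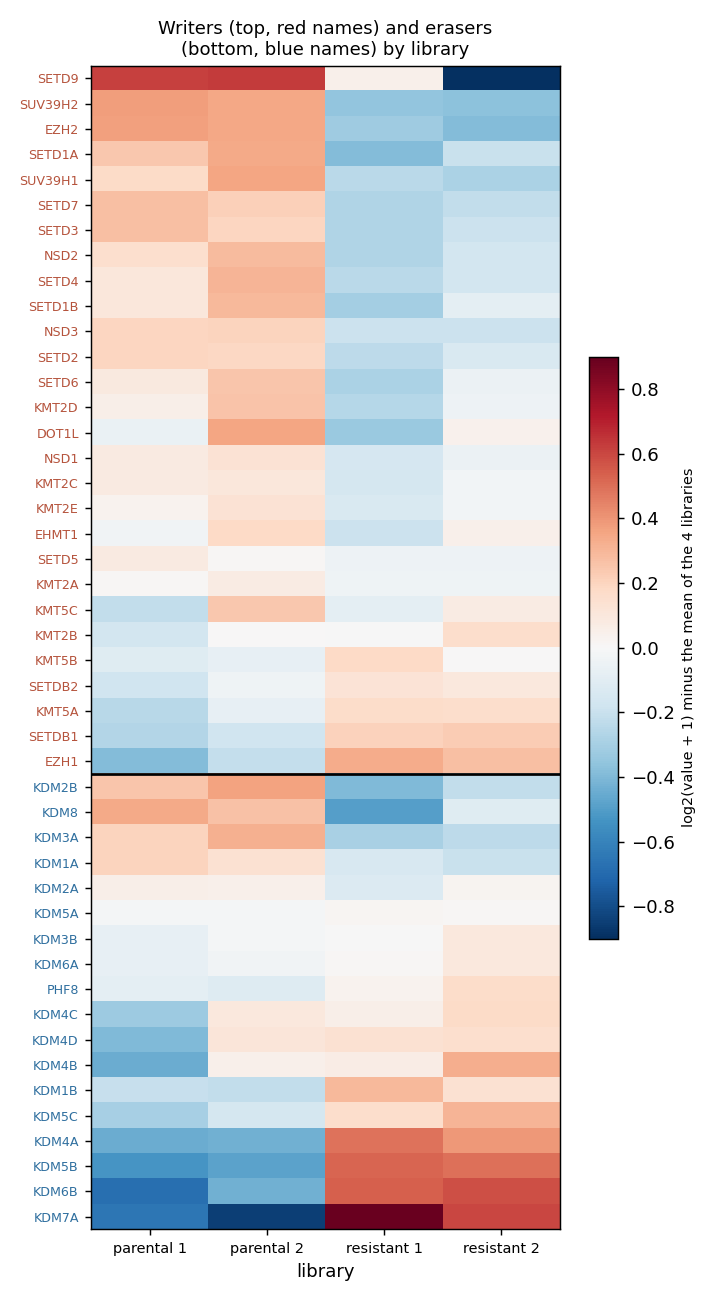
Log2(value + 1) of the 46 tested members in each library, minus the gene's mean over the 4 libraries, writers above the line and erasers below, each ordered by log2 fold change. Colours end at ±0.9, beyond which SETD9 lies in resistant replicate 2. Most writers are red in the parental columns, whereas the erasers in the bottom rows, KDM4A, KDM5B, KDM6B and KDM7A, are red in the resistant columns.

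The largest changes of the set were rises of JmjC demethylases. KDM7A (ENSG00000006459, chromosome 7, 140084746 to 140177035), which removes mono- and dimethyl marks from H3K9 and H3K27, had 306 and 267 in parental against 890 and 730 in resistant libraries. It rose 2.82-fold (1.49 ± 0.14; adjusted p = 0.000186). The resistant libraries differed from each other by more than the parental ones did, and both lay far above them. KDM6B (ENSG00000132510, chromosome 17, 7839904 to 7854796), the stress- and inflammation-induced demethylase of H3K27, had 373 and 441 against 865 and 890. It rose 2.16-fold (1.11 ± 0.12; adjusted p = 0.000313). Its paralog KDM6A, on the X chromosome, had 1348 and 1385 against 1430 and 1513, a log2 fold change of 0.11 ± 0.08 (95% interval −0.08 to 0.30) that did not pass (adjusted p = 0.359). The ratio of KDM6A to KDM6B went from 3.61 and 3.14 to 1.65 and 1.70.

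KDM5B (ENSG00000117139, chromosome 1, 202724495 to 202809470), an H3K4 demethylase that marks slowly cycling cells in some tumors, had 809 and 837 in parental against 1684 and 1650 in resistant libraries. It rose 2.03-fold (1.02 ± 0.08; adjusted p = 0.000132), and the libraries of each group lay close together. KDM5C, on the X chromosome, had 6041 and 6678 against 8298 and 9198 and rose 1.38-fold (0.46 ± 0.08; adjusted p = 0.00368). KDM5A, known for its part in reversible drug tolerance of cancer cells, had 3446 and 3451 against 3540 and 3520. Its log2 fold change was 0.03 ± 0.07, with a 95% interval of −0.13 to 0.20 (adjusted p = 0.753). The ratio of KDM5A to KDM5B was 4.26 and 4.12 in parental against 2.102 and 2.133 in resistant libraries.

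In the KDM4 family, which acts on trimethylated H3K9 and H3K36, KDM4A (ENSG00000066135, chromosome 1, 43650158 to 43705515) had 1892 and 1912 in parental against 3629 and 3377 in resistant libraries. It rose 1.84-fold (0.88 ± 0.08; adjusted p = 0.000174). KDM4A overlaps AL451062.3 on the same strand by 2077 exon bases, a gene not analysed here, so its fragments may include some of that gene. KDM4B (1398, 1967, 1997 and 2392) and KDM4C did not pass, with log2 fold changes of 0.40 ± 0.17 and 0.23 ± 0.14. Without parental replicate 2 the value of KDM4B was 0.64 and passed (adjusted p = 0.00477), and KDM4C passed as well. KDM4D was low (59.4 to 87.5 scaled fragments) and did not pass. PHF8, an X-linked relative of KDM7A that acts on H4K20 and H3K9, reached a log2 fold change of 0.20 ± 0.08 (adjusted p = 0.0986) and passed with TMM factors and with scaling to library totals.

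JmjC enzymes of the KDM2 and KDM3 families did not rise. KDM2B (ENSG00000089094, chromosome 12, 121429097 to 121581015), which demethylates H3K36 and recruits Polycomb to CpG islands, had 1722 and 1863 in parental against 1100 and 1244 in resistant libraries. It fell 1.53-fold (−0.61 ± 0.10; adjusted p = 0.00175). KDM2B shares 439 exon bases with RNF34 on the opposite strand, which was also lower (1077 and 1056 against 713 and 776). KDM3A (ENSG00000115548, chromosome 2, 86440647 to 86492716), an H3K9 demethylase induced by hypoxia, had 2284 and 2485 against 1622 and 1690 and fell 1.44-fold (−0.52 ± 0.08; adjusted p = 0.00192). Their paralogs KDM2A and KDM3B had log2 fold changes of −0.099 and 0.088 and did not pass. KDM8, with a log2 fold change of −0.61 ± 0.24, was low (41.4 to 74.8) and did not pass (adjusted p = 0.0847).

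The flavin-dependent pair, which removes mono- and dimethyl marks from H3K4, was divided. KDM1A (LSD1) had 5145 and 4917 in parental against 4054 and 3890 in resistant libraries. It fell 1.27-fold (−0.34 ± 0.07; adjusted p = 0.00756), and the call was lost without resistant replicate 2 (−0.31; adjusted p = 0.0557). KDM1B had 1067 and 1057 against 1516 and 1361. It rose 1.35-fold (0.43 ± 0.09; adjusted p = 0.00674), and this call was lost without resistant replicate 1 (0.36; adjusted p = 0.0813). In the CoREST complex, which holds KDM1A, 3 of 9 tested genes rose (33.3%) and 1 fell (11.1%). Over all genes tested 16.2% rose and 20.9% fell. PHF21A, which binds unmethylated H3K4, rose by 0.94 on the log2 scale (1040 and 932 against 1892 and 1891; adjusted p = 0.000216). ZMYM2, a zinc finger protein of the complex, rose by 0.48 (adjusted p = 0.0058), while the deacetylase gene HDAC2 fell by 0.56 (adjusted p = 0.000765). The scaffold RCOR1 did not pass (−0.11 ± 0.08).

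**Figure D4:**
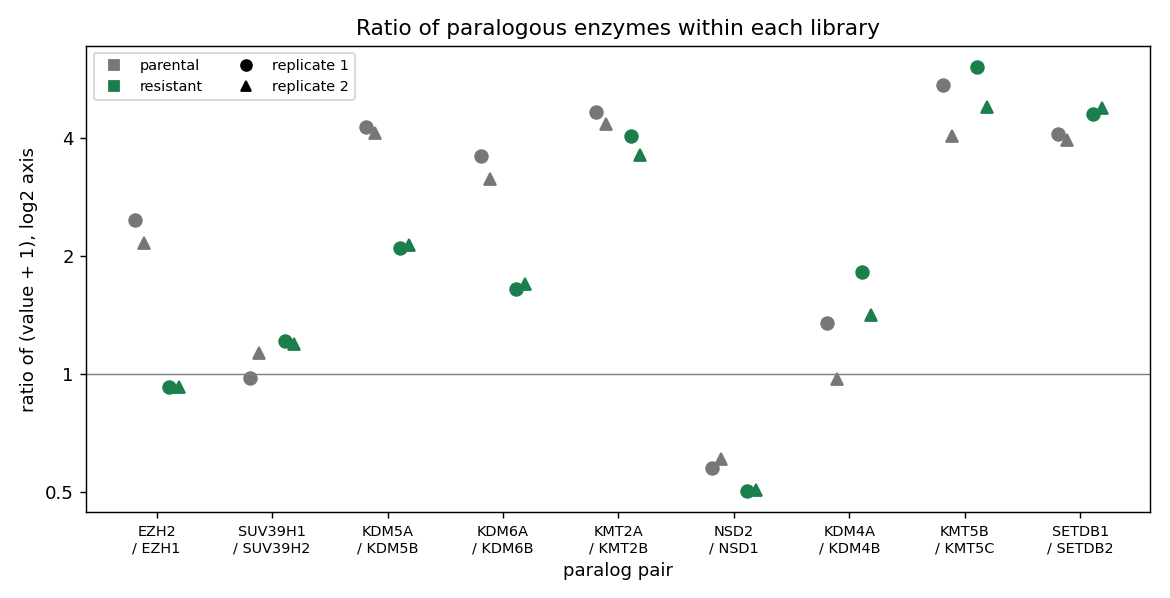
Ratio of the values (+ 1) of 9 paralog pairs within each library, on a log2 axis, with parental libraries in grey and resistant ones in green. The EZH2 to EZH1, KDM5A to KDM5B and KDM6A to KDM6B ratios separate the groups most widely, by −1.32, −0.98 and −1.01 on the log2 scale.

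Ratios were formed for 9 paralog pairs, and in 8 of them the groups did not overlap (exact permutation p = 0.333 each, the smallest possible). No ratios of other gene pairs were formed for comparison, so whether this count is unusual was not tested. Outside the EZH, KDM5 and KDM6 pairs the differences were smaller. KDM4A to KDM4B differed by 0.48, KMT2A to KMT2B by −0.24, NSD2 to NSD1 by −0.23, SETDB1 to SETDB2 by 0.22 and SUV39H1 to SUV39H2 by 0.20 on the log2 scale. The KMT5B to KMT5C ratio overlapped between groups (exact permutation p = 0.667).

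Levels between genes were compared per kilobase of merged exon length, an approximate scale because merged exons can be longer than the transcript used. KDM1A was highest in parental cells (925 scaled fragments per kb), followed by KDM5C (729), NSD1 (635) and SETD7 (615). In resistant cells KDM5C was highest (1002.5), followed by KDM1A (730.1), KDM4A (677) and KDM3B (596). KDM4A moved from rank 11 to rank 3 of the 49 members and EZH2 from rank 6 to rank 12. Divided by the longest coding transcript instead, KDM1A stayed first in parental and KDM5C first in resistant cells, and KDM4A moved from rank 17 to 4. KDM7A and KDM5B ranked 43 and 42 in parental cells on the merged scale (30.4 and 31.8 per kb) and 37 and 39 in resistant cells (85.9 and 64.4 per kb).

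The changes were set beside those of neighbouring genes. For each member the median log2 fold change of the nearest tested coding genes, 10 on each side where the chromosome held them, was taken. These medians were 0.03 for KDM7A, −0.04 for KDM6B, 0.10 for KDM5B, −0.13 for KDM4A and −0.08 for EZH2, each closer to 0 than the member's own change. For SUV39H2 the neighbours had a median of −0.44, with 6 of 20 above 0. Lower neighbours were also found for NSD1 (−0.31), NSD2 (−0.28), KMT2C (−0.27), KMT5C (−0.23), SETD2 (−0.22), KMT2A (−0.20) and KMT2E (−0.20). For NSD1, KMT2C, KMT5C, KMT2A and KMT2E the neighbours' median was lower than the member's own change. By contrast, the neighbours of SETD7, which fell, had a median of 0.24, and those of EHMT1 0.25. Over the 46 members the Pearson r between a member's change and its neighbours' median was 0.24, given as a description.

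Genes of proliferation moved with the groups. All 14 tested genes of a list of 15 fell, against 20.9% of all genes tested, with a median of −0.75. CCNE2 fell by 1.51, MCM4 by 0.95 and PCNA by 0.86 on the log2 scale, while MKI67 fell by 0.21 and BUB1 by 0.23. The calls of MKI67 and BUB1 were lost whichever library was left out, with TMM factors and with library totals. That of TOP2A, which fell by 0.26, was lost with library totals and without trend and robust moderation. EZH2 is known to be higher in dividing cells, and the part of proliferation in the changes of the set was not tested.

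**Figure D5:**
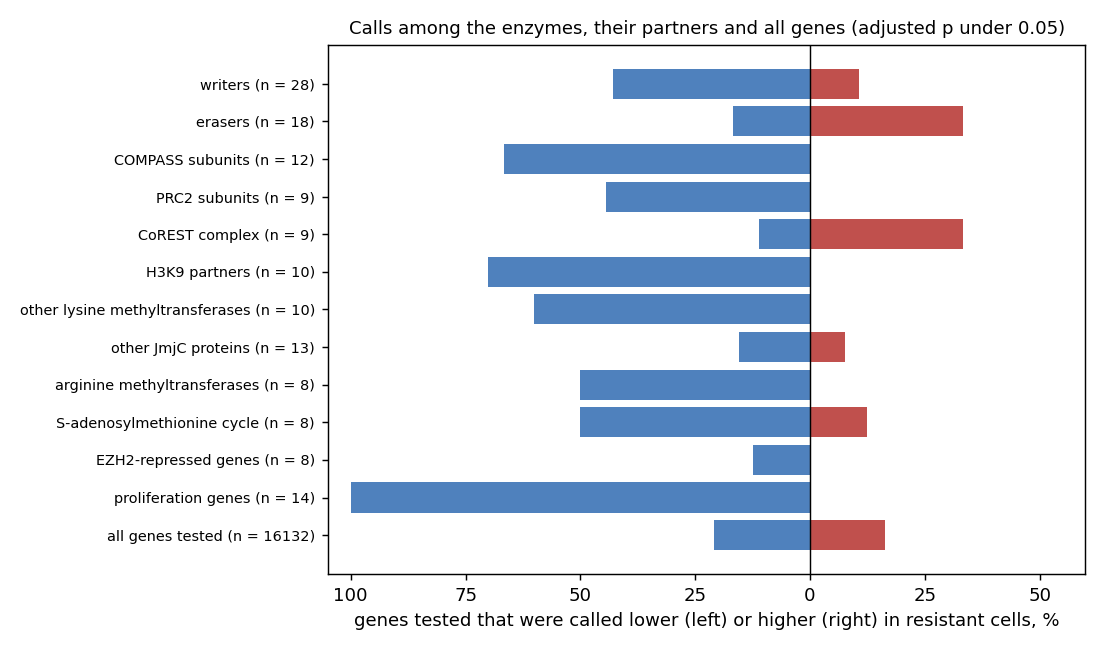
Percent of the tested genes of each list that were called lower (left, blue) or higher (right, red) in resistant cells, with all 16132 genes tested at the bottom. More erasers and CoREST genes were called higher than lower, the writers and the other lists had more calls to the left, and all 14 proliferation genes were called lower.

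Related families outside the set were read from the same test, in which 16.2% of all genes rose and 20.9% fell. Of 10 other lysine methyltransferase genes tested, of the PRDM, SMYD and other families, 6 fell (60%) and 0 rose, with a median of −0.40. This count was 2 without resistant replicate 1 and 3 when any other library was left out. MECOM, a zinc finger regulator with a PR domain, had 783 and 860 in parental against 418 and 391 in resistant libraries and fell by 1.02 (adjusted p = 0.000334). SMYD2 fell by 0.61 and SMYD4 by 0.39 (adjusted p = 0.00139 and 0.00783), the latter not called without either resistant library. Of 13 other JmjC genes 1 rose (7.7%) and 2 fell (15.4%), both shares under those of all genes, with a median of −0.04. JARID2 is counted here and in the PRC2 list. HIF1AN, the asparagine hydroxylase of hypoxia-inducible factor, rose by 0.79 (2408 and 2470 against 4071 and 4377; adjusted p = 0.000246), and JMJD6 and JMJD8 fell. The call of JMJD6 was lost without resistant replicate 1, and that of JMJD8 whichever library was left out, with TMM factors or with library totals. With library totals 3 of these genes were called higher.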

How the data were processed

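RNA sequencing of 2 parental and 2 resistant GBM8401 libraries was used. The submitters' processing notes name the build GRCh38.p10, the aligner HISAT2 2.1.0, Cuffdiff of Cufflinks 2.2.1, and for read handling bcl2fastq, Trimmomatic 0.36 and SAMtools 1.2. Whether the authors counted by strand is not given in the sources used here. Overlapping and antisense genes thus cannot be told apart. The deposited values are a signal: fragments per gene multiplied by 1 factor for each library and not divided by length. Because they are scaled and not whole, limma 3.58.1 (R 4.3.3) was fitted to log2(value + 1), with trend and robust moderation, two-sided, and with Benjamini-Hochberg adjustment over all genes tested. Genes needed a value of at least 10 in at least 2 libraries and a sum of at least 15. Fold changes on this scale understate those of low genes. Intervals and SE come from limma, means carry the SD of 2 libraries. The fit was tested on simulated data with independent noise in each library. That simulation lacked the shared deviations of same-numbered libraries, so it cannot vouch for the calls made here.

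Positions and classes come from GENCODE 29 (GRCh38). Members, lists and the naming rule were chosen with earlier results of these data known. Values in every library are given for called members with an absolute log2 fold change of at least 0.5 and for a fixed set of 13 members, some of which meet both, and up to 3 called genes are named from each partner list. Further genes were named after their values were seen, and some called genes of the partner lists are not reported here. The alternatives are described with their effect at the end.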

Additional observations from a re-analysis of the deposited data

How the results depend on the processing

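Each result was recomputed under 14 other settings. Of the 24 called members, 15 were called in all of them and 24 kept their direction in all. Of the 22 members not called, 13 were called in at least 1. Without trend and robust moderation 9 members and 7 writers were called lower. Over all 16132 genes tested, 3686 were called in either direction in that setting, against 5991 in the fit reported. Same-numbered libraries deviated together (r = 0.27 over all genes tested), but the labels tie no number to a shared day, so the number is not a pairing of the design. With the replicate number as a block, 23 members and 19 writers were called lower, 0 calls were lost and 12 were gained, DOT1L, NSD1 and KDM4B among them. Calls over all genes tested rose with the block as well, from 5991 to 8624. With the block and a correction for length and GC content, 20 members were called lower and 13 higher, and 8709 of all genes tested were called.

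Scaling to library totals gave medians of −0.030 for members, −0.21 for writers and 0.31 for erasers. It moved the median of all genes from −0.018 to 0.076. That median was 0.036 with TMM factors, 0.0056 without a filter and 0.0036 after length and GC correction, with or without the block. Of all called genes 43.7% were higher in the fit reported. The share was 56.9% with library totals and 51.3% with TMM factors. Leaving out 1 library gave medians of −0.20 to −0.085 for members, −0.40 to −0.18 for writers and 0.073 to 0.31 for erasers. Calls in these fits rest on 1 library in a group. Their number over all genes tested fell as well, so counts of members called are not compared. KMT2A and SETD5 changed sign to 0.016 and 0.0058 with library totals. KMT5C did so with library totals (0.079), TMM factors (0.038) and length and GC correction with or without the block (0.020), and ranged from −0.25 to 0.22 when 1 library was left out. The difference of the KMT5B to KMT5C log2 ratio between groups ranged from −0.021 to 0.41 when 1 library was left out. None of these 3 genes was called. Divided by the step of their library, 94.9% to 95.3% of the values above 0 were within 0.1 of a whole number of fragments. The others were not, and count-based tests were not run. Low members such as SETD9, KDM8 and KDM4D had the widest intervals.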

Other observations

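Arginine methyltransferases, which draw on the same methyl donor, and the genes of the cycle that supplies it were read from the same test. Of 8 tested arginine methyltransferase genes 4 fell (50%) and 0 rose, against 20.9% and 16.2% of all genes tested. The median log2 fold change was −0.27. The number called lower was 2 without resistant replicate 1 and 1 without trend and robust moderation. PRMT1, the main enzyme of asymmetric dimethylarginine, had 4246 and 4381 scaled fragments in parental against 2964 and 3143 in resistant libraries and fell by 0.50 on the log2 scale (adjusted p = 0.00152). CARM1 fell by 0.41 (adjusted p = 0.0038) and PRMT5, which makes symmetric dimethylarginine, by 0.28 (adjusted p = 0.0154). The call of PRMT5 was lost in 5 of the 14 other settings, library totals among them. PRMT7 and PRMT9 had log2 fold changes of −0.26 and 0.046 and did not pass.

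In the S-adenosylmethionine cycle 4 of 8 tested genes fell (50%) and 1 rose (12.5%), against 20.9% and 16.2% of all genes tested. The median was −0.21. The number called lower was 2 without resistant replicate 1 and 1 without moderation, and 3 genes were called higher with library totals. MAT1A, a methionine adenosyltransferase gene known from liver, had 1628 and 1628 in parental against 777 and 858 in resistant libraries and fell by 0.99 (adjusted p = 0.000185). MAT2A, the form used outside the liver, had 8351 and 8541 against 6285 and 6837 and fell by 0.37 (adjusted p = 0.00566). The methionine synthase gene MTR fell by 0.38 and its reductase MTRR by 0.28. The call of MTRR was lost in 5 of the 14 other settings, library totals among them, and that of MTR in 2. AHCYL1 rose by 0.24 (adjusted p = 0.0255), a call lost whichever library was left out (adjusted p up to 0.126). AHCY, which clears the by-product of methylation, did not pass (0.13 ± 0.08). Levels of the metabolites were not measured.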
